A study of Saccharomyces cerevisiae with 20 samples.

Results

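The 42 genes described here encode assembly factors of the budding yeast ribosome, out of 6532 features in the deposited tables. They were chosen by a list of open reading frames, with no measured value in the rule, and all 42 were found. By role, 3 encode proteins of box C/D small nucleolar ribonucleoproteins (snoRNPs), 3 encode proteins of box H/ACA snoRNPs, 10 act on the small subunit and 26 on the large subunit. The large-subunit factors comprise the Nop7 complex (3 genes), GTPases (3), RNA helicases (5) and other factors (15), and HAS1 and DBP2 among the helicases also have roles elsewhere. The members lie on 15 chromosomes.

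Ribosomes are assembled in the nucleolus, where RNA polymerase I makes a long precursor that is modified, folded and cut while ribosomal proteins join it. Assembly factors act on this precursor and leave before the ribosome is finished. Box C/D particles guide methylation of ribose in rRNA, and box H/ACA particles guide pseudouridylation. In yeast the genes of these factors are known as the ribosome biogenesis regulon, whose levels follow growth rate and nutrients.

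The strains of Saccharomyces cerevisiae compared were the wild type W303a (WT) and a strain labelled delta_set1 (set1Δ). SET1 encodes the methyltransferase for lysine 4 of histone H3. Per strain, 1 library came from asynchronous cells and 9 came from cells held in G1 with the mating pheromone α-factor, then washed and sampled every 15 min from 0 to 120 min, 10 libraries in all. All cultures grew in rich medium at 30 °C, and the labels name no other allele and no drug. Each strain and time had 1 library and the labels name no separate cultures, so p-values measure the spread between time points and not between cultures. PAT-seq was used, which sequences 3′ ends of transcripts so that each feature has a number of reads and an average length of the poly(A) tails.

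Depth ranged from 476565 to 2413354 reads per library, and the members together took from 0.890% (WT, 0 min) to 1.62% (set1Δ, 30 min) of the reads. SET1 had 22 to 150 reads in WT libraries and 6 to 35 in set1Δ libraries, a log2 difference of −2.16 ± 0.13 (SE; adjusted p = 6.36e-08, edgeR quasi-likelihood). Which bases were deleted is not stated in the labels, so the remaining reads check nothing further. Reads ending in a poly(A) tail made up 51.3% and 32.2% of all reads in WT at 105 and 120 min, 58.0% to 91.7% in the other WT libraries, 52.4% and 66.8% in set1Δ at 105 and 120 min and 53.1% to 76.3% in the other set1Δ libraries. Results that rest on the late libraries are given with and without them. The strains also differed in timing. The summed level of 6 pheromone genes was 4769.5 CPM (read counts scaled to equal library size) in WT and 3155 CPM in set1Δ at 0 min, and 2450.0 CPM in WT and 154 CPM in set1Δ at 15 min. The summed level of 4 genes of the G1/S transition was highest after release at 30 min in WT (1046 CPM) and at 15 min in set1Δ (1408 CPM). The part of this timing in the strain differences below was not tested, and in bulk libraries fewer cells in a phase and less RNA per cell cannot be told apart.

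Promoters are shown first because most members share short motifs there. The 300 bases before the annotated start were read for 6001 protein-coding genes from RefSeq, assembly R64, and searched on both strands for GATGAG, the core of the PAC element, and for AAAAATTT, the core of the RRPE element. In yeast the repressors Dot6 and Tod6 are known to bind PAC, and Stb3 is known to bind RRPE. GATGAG was found before 38 of 42 members (90.5%) and before 19.1% of all genes. AAAAATTT was found before 40 members (95.2%) and before 15.1% of all genes. Both were found before 37 members (88.1%) and before 5.60% of all genes, and 1 member, UTP22, had neither. Measured from the first base of a match to the start codon, the 57 PAC matches lay at 57 to 220 bases with a median of 120, and the 64 RRPE matches at 34 to 295 bases with a median of 146. PAC and RRPE matches were counted apart. AAAAATTT and its reverse complement can overlap, and such pairs were counted as separate matches. A match describes letters and is not evidence of binding.

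The 5 promoters printed here were chosen after the values were seen. RPF2 and NOP7 had the smallest p-values of the strain difference, UTP22 and RIO2 changed over time in both strains, and GAR1 had a profile that differed between the strains. Each runs 5′ to 3′ toward its gene and ends at the base before the start codon, and capitals mark PAC and RRPE letters on either strand.
RPF2 (chrXI:592541-592840, minus strand): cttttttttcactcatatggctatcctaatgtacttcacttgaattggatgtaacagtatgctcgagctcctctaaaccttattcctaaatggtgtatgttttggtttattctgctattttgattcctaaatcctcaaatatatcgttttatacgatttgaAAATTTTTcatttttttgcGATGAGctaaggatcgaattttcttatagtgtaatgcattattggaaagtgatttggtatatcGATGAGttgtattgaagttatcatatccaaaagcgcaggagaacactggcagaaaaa
NOP7 (chrVII:695117-695416, plus strand): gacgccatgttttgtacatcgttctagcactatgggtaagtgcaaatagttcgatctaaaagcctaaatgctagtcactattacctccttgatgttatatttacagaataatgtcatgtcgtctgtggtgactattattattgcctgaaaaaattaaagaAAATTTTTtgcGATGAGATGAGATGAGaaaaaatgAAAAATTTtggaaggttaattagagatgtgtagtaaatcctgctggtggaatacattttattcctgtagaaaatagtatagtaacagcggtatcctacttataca
UTP22 (chrVII:662058-662357, plus strand): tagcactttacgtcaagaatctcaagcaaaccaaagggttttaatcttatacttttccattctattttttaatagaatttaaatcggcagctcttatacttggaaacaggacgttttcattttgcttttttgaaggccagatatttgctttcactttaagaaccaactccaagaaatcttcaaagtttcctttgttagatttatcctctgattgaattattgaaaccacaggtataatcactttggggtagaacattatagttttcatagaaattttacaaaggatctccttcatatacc
RIO2 (chrXIV:255053-255352, plus strand): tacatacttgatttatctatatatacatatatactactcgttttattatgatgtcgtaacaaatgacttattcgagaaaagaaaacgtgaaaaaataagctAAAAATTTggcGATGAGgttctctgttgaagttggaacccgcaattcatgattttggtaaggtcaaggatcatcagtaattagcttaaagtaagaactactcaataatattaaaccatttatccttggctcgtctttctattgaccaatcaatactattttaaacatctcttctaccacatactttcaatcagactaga
GAR1 (chrVIII:283299-283598, minus strand): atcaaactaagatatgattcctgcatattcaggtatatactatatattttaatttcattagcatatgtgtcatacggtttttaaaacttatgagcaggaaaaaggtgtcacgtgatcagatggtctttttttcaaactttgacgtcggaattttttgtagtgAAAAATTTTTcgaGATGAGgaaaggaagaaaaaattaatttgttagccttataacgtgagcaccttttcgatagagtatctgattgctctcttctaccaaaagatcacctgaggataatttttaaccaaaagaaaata
NOP7 has 3 overlapping PAC matches, at 129, 124 and 119 bases, with an RRPE match on each side at 140 and 105 bases. RPF2 has an RRPE match at 139 bases and PAC matches at 120 and 57 bases. In RIO2 the RRPE match lies at 199 bases and the PAC match at 188 bases. GAR1 has a PAC match at 125 bases, beside RRPE letters that read on both strands at 138 and 136 bases. The windows of RPF2 and NOP7 reach into the neighbouring genes NUP133 and GTF1.

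**Figure D1:**
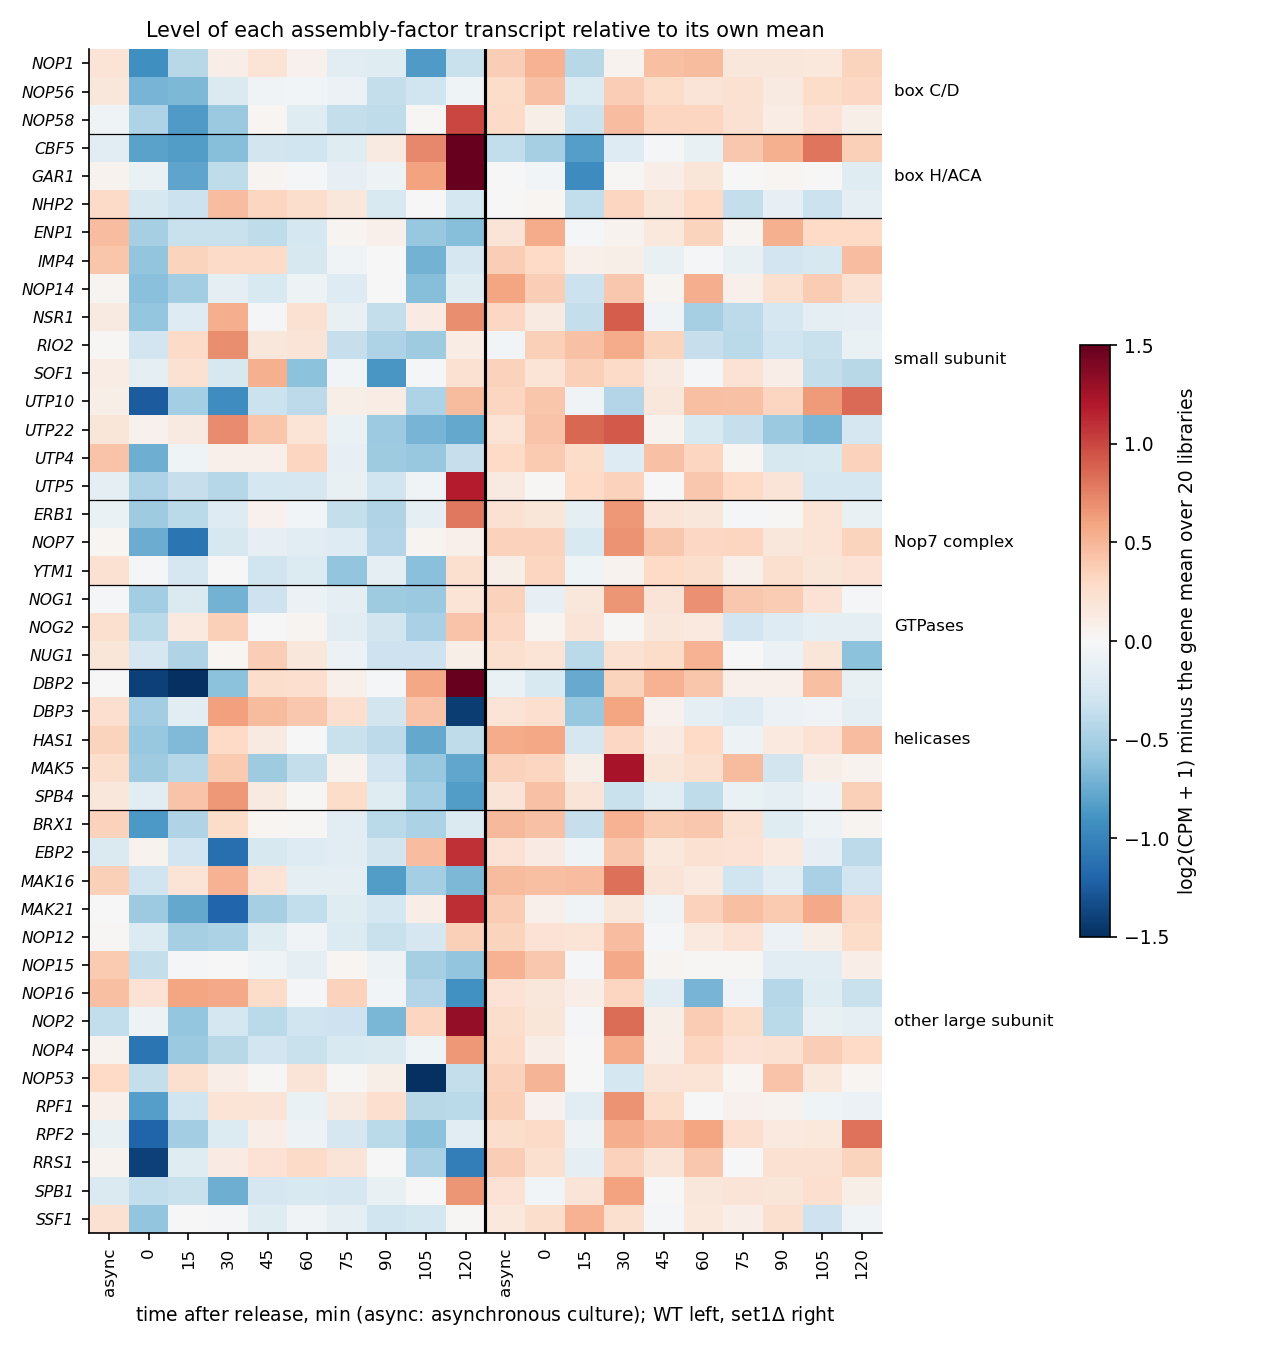
Level of each of the 42 transcripts (rows, by role) in each of the 20 libraries (columns, WT left and set1Δ right), as log2(CPM + 1) minus the mean of that gene over all libraries; the colour scale ends at −1.5 and 1.5. Most members are below their own mean in WT at 0 min, and CBF5, GAR1, DBP2, NOP2 and several others are far above it in WT at 120 min.

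The first comparison asked whether the members' levels differed between the strains. The members that differed were higher in set1Δ. With time point as a factor, 14 of 42 were called higher and 0 lower (edgeR quasi-likelihood, adjusted p below 0.05), where 8.44% of the 5060 features tested were called higher and 10.5% lower. Before adjustment 22 members had p below 0.05, and DESeq2 also called 14 higher and 0 lower. In all, 36 members had a positive difference, and the median difference was 0.27 on the log2 scale, against −0.01 over all features. Where the strains were compared in poly(A) reads alone, 16 members were called higher and 0 lower (11.6% of features higher). Of the 14 called in all reads 12 were among them, and MAK21 (0.24, adjusted p = 0.190) and NOP12 (0.29, adjusted p = 0.0710) were not.

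Of the 26 large-subunit factors, 9 were called higher. RPF2 (YKR081C, R64 chromosome XI, 591506 to 592540, minus strand), which with Rrs1 brings the 5S rRNA particle to the large subunit, ranged from 65.3 to 161 CPM in WT with a median of 129, and from 143 to 265 CPM in set1Δ with a median of 183. The ranges overlapped, yet set1Δ was higher at each of the 10 times. The log2 difference was 0.68 ± 0.12 (SE, n = 10 per strain; edgeR adjusted p = 7.86e-04), the highest of the members. NOP7 (YGR103W, R64 chromosome VII, 695417 to 697234, plus strand), a scaffold of the complex with Erb1 and Ytm1, had 115 to 259.7 CPM in WT (median 218) and 211 to 393 CPM in set1Δ (median 309.6), higher in set1Δ at 10 of 10 times (0.57 ± 0.11, adjusted p = 0.00232). Its partners YTM1 (0.34 ± 0.12) and ERB1 (0.28 ± 0.14) did not pass. The GTPase NOG1 (YPL093W) ranged from 63.8 to 121 CPM in WT (median 87.4) and from 96.2 to 169.5 CPM in set1Δ (median 128; log2 difference 0.58 ± 0.13, adjusted p = 0.00524), while the GTPases NUG1 (0.12 ± 0.12) and NOG2 (0.02 ± 0.11) did not pass. Of 5 helicases, MAK5 (0.55 ± 0.12) and HAS1 (0.47 ± 0.13) were called, and DBP2, DBP3 and SPB4 were not. The other called factors of the large subunit were MAK21, NOP4, BRX1 and NOP12, with log2 differences of 0.37 to 0.52. The lowest difference among members was that of NOP16, at −0.24 ± 0.13 (adjusted p = 0.194).

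Of 10 small-subunit factors, 3 were called higher. UTP10 (YJL109C, R64 chromosome X, 212000 to 217309, minus strand), a large protein of the complex that first binds the precursor rRNA, had 89.0 to 297 CPM in WT (median 166) and 157 to 385 CPM in set1Δ (median 276), and was higher in set1Δ at 10 of 10 times (0.61 ± 0.14, edgeR adjusted p = 0.00562). NOP14 (YDL148C), which is needed for 18S rRNA maturation, ranged from 51.4 to 83.1 CPM in WT (median 70.6) and from 64.4 to 122 CPM in set1Δ (median 100.1; 0.51 ± 0.11, adjusted p = 0.00492). ENP1 was called with 0.47 ± 0.14. UTP4 (0.28 ± 0.13), UTP22 (0.08 ± 0.13), RIO2 (0.03 ± 0.12) and the nucleolin-like NSR1 (−0.10 ± 0.14) did not pass.

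The snoRNP proteins were not alike in their values. Of the box C/D proteins, NOP56 (YLR197W, 0.46 ± 0.11) and the methyltransferase NOP1 (YDL014W, 0.45 ± 0.14) were called, and NOP58 was not (0.37 ± 0.15, adjusted p = 0.0872). NOP56 ranged from 126 to 231 CPM in WT and from 177 to 279 CPM in set1Δ. None of the 3 box H/ACA proteins was called, and the log2 differences were 0.03 ± 0.19 for the pseudouridine synthase CBF5, −0.09 ± 0.11 for NHP2 and −0.15 ± 0.18 for GAR1. The difference between the 2 classes was not tested.

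The calls nearest the threshold were BRX1 (0.38 ± 0.12, edgeR adjusted p = 0.0348) and NOP1 (adjusted p = 0.0315). Leaving out 1 time at a time gave 10 to 20 higher calls, with 10 without 60, 75 or 90 min (6.47%, 6.63% and 6.95% of features) and 20 without 120 min (13.4% of features). RPF2, NOP7, NOP14, MAK5, NOG1, UTP10, NOP56, NOP4 and HAS1 were called each time. NOP1 was lost without 0, 60, 75, 90 or 105 min (adjusted p from 0.0523 to 0.0755), BRX1 without 45, 60, 75, 90 or 105 min, and ENP1 without 0, 45, 60, 90 or 105 min. MAK21 was lost without 30, 60, 75 or 90 min, and NOP12 without 15, 30 or 75 min. Without 0 min, 12 were called higher (7.80% of features). Without 0, 105 and 120 min, a setting chosen after seeing the data, 17 were called higher (14.7% of features) and 1 lower. NOP2 (0.57), NOP58 (0.54), DBP2 (0.42) and ERB1 (0.40) were called higher, and NOP16 lower (−0.38), when 105 and 120 min were left out. Related lists were read the same way. Of 119 other assembly factors tested, 21 were called higher and 1 lower, and of 7 subunits of RNA polymerase I, 3 were called higher. Of 138 ribosomal protein genes, 0 were called higher and 8 lower. Over all features tested, 8.44% were called higher and 10.5% lower, and no test compared these lists with that share. Among the regulators, STB3 was lower in set1Δ (−0.51 ± 0.17, edgeR adjusted p = 0.0434). DOT6 (0.01 ± 0.10), TOD6 (−0.03 ± 0.15) and the kinase gene SCH9 (0.05 ± 0.11) did not pass. The regulator SFP1, at 0 to 6.94 CPM, fell below the minimum mean count and was not tested. The PAC letters stood before 14 of the 14 called members and before 24 of the 28 others, and the RRPE letters before 13 and 27.

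**Figure D2:**
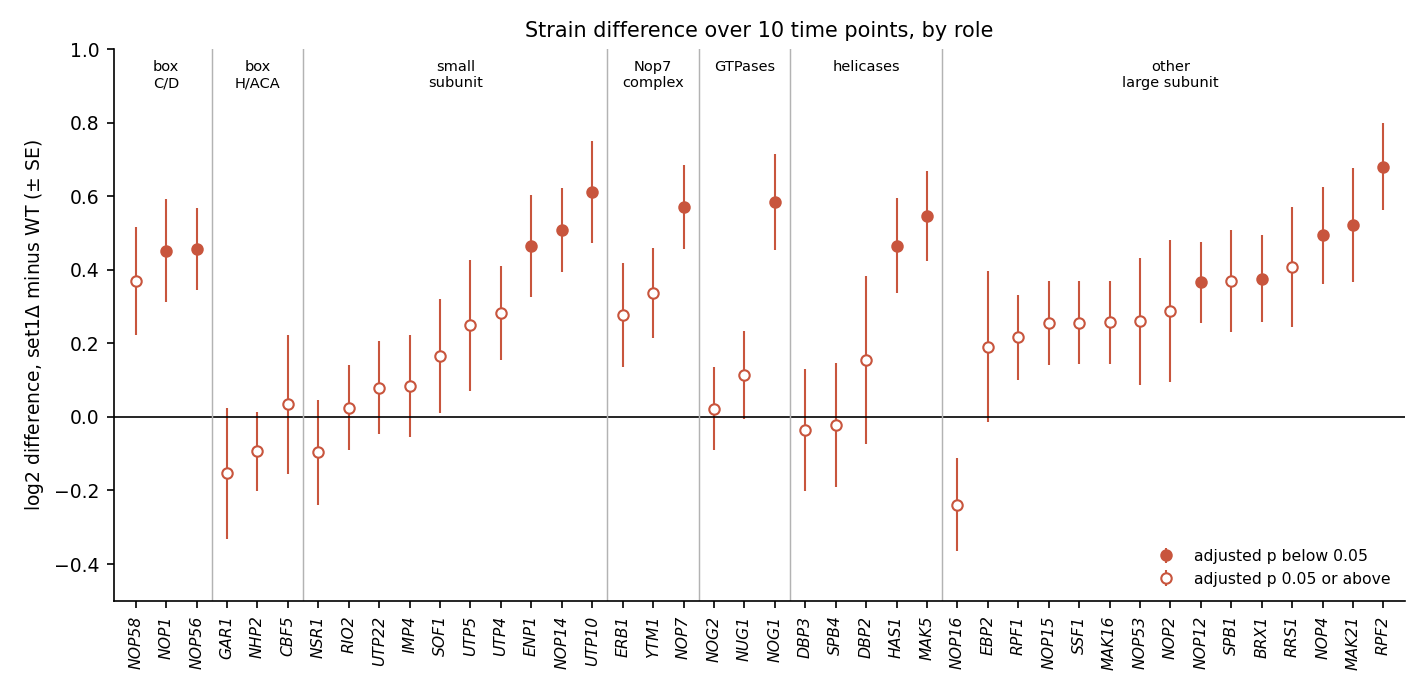
Log2 difference between strains (set1Δ minus WT, ± SE of the edgeR fit over 10 times) for each member, grouped by role; filled points have an adjusted p below 0.05. The 14 filled points are above 0, and the 3 box H/ACA genes lie between −0.15 and 0.03.

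The second comparison set the arrest, 0 min, beside the asynchronous culture. In WT, 40 of 42 members were lower in the arrest (52.0% of all features), with a median difference of −0.66 in log2(CPM + 1). Of the members 24 were at least 1.5-fold lower, as were 21.5% of all features. In set1Δ, 26 members were lower (50.6% of all features), with a median of −0.05, and 0 were at least 1.5-fold lower (10.8% of all features). These values come from 1 library each and have no replicate check. RRS1 (YOR294W), the partner of Rpf2, was at 107 CPM in asynchronous WT cells and 38.6 CPM in arrested ones, and at 134 and 122 CPM in set1Δ. For UTP10 the WT values were 227 and 89.0 CPM, and the set1Δ values 267 and 285 CPM. For DBP2 (YNL112W) they were 675 and 255 CPM, and 627 and 573 CPM. NOP2, a methyltransferase of 25S rRNA, and EBP2 were the 2 members not lower in WT, at 178 and 219 CPM for NOP2 and 278 and 334 CPM for EBP2.

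Tested in both strains together, 0 of 42 members were called in the arrest and 0 had an unadjusted p below 0.05, though 37 estimates were negative (median −0.31). Over all features 2.77% were called higher and 1.84% lower, and 13.8% had an unadjusted p below 0.05; DESeq2 also called 0 members. The lowest member estimate was that of DBP2, at −0.68. Whether the arrest differed between strains was tested in a fit added after seeing the data. It called 0 members and 0% of features at an adjusted p below 0.05. The estimate was positive for 39 of 42 members, meaning a smaller decrease or a larger increase in set1Δ, with a median of 0.63 against 0.01 over all features. Unadjusted p was below 0.05 for 7 members, all positive, where 2.06% of features had a positive difference with such a p. UTP10 had the smallest, with a difference of 1.45 ± 0.52 (edgeR unadjusted p = 0.0149, adjusted p = 0.805). The strains are therefore not shown to differ in the arrest. In simulated data of this design the test found 18% of genes given a 4-fold difference, so it could miss large ones. Without the set1Δ library of 0 min, the shared median was −0.62, and without the WT library of 0 min it was −0.06.

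The strain difference was also read at each time. Its median over members was 0.14 in the asynchronous pair, 0.74 at 0 min, 0.24 at 15 min, 0.43 at 30 min and 0.19 to 0.34 at later times. It was positive in 41 of 42 members at 0 min (49.8% of all features), in 30 in the asynchronous pair (49.4%), and in 22 at 120 min (50.3%). WT at 0 min had 5954 reads on members and set1Δ at 30 min had 7729, the fewest of the libraries of each strain.

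**Figure D3:**
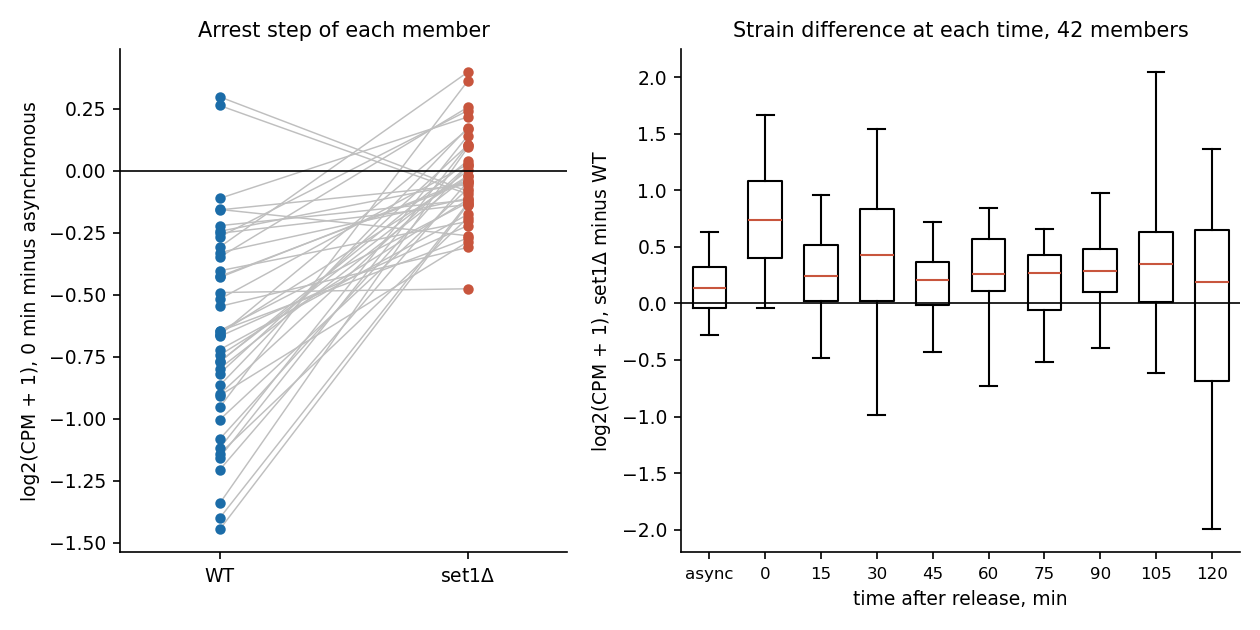
Left, difference in log2(CPM + 1) between 0 min and the asynchronous culture for each member, with a line joining the same gene in WT and set1Δ; right, difference between strains at each time over the 42 members (box, quartiles; line, median; whiskers, range). In the left panel 40 WT points and 26 set1Δ points are below 0, and in the right panel the median is highest at 0 min, 0.74.

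From 0 to 15 min after release the values of most members went up in WT and down in set1Δ. In WT 29 were higher at 15 min (median 0.23), and in set1Δ 33 were lower (median −0.32), again from 1 library each. Over all features 49.9% were lower in WT and 49.8% in set1Δ. Tested in both strains together, 0 members were called (edgeR; 1.52% of features higher, 0.158% lower), 0 had an unadjusted p below 0.05 (10.8% of features), and DESeq2 called 0. GAR1 had the lowest estimate, −0.80 ± 0.39 (adjusted p = 0.488). Its level went from 2420 to 1495 CPM in WT and from 2517 to 1349 CPM in set1Δ, so it was lower in both. Without 105 and 120 min it was the only member called (−0.80, adjusted p = 0.0391). From 15 to 30 min, 31 members were higher in WT and 35 in set1Δ, with medians of 0.27 and 0.48. In that step 51.4% of all features were lower in WT and 51.2% in set1Δ. The arrest and release comparisons share the 0 min libraries.

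The third comparison asked which members changed over time after release. A spline of time called 22 of 42 members in WT (39.3% of features) and 5 in set1Δ (15.8% of features). The 5 in set1Δ were UTP22, CBF5, MAK16, DBP2 and RIO2, and each was also called in WT. UTP22, MAK16 and RIO2 each had the highest level at 30 min and lower levels from 60 to 105 min, in both strains. UTP22 (YGR090W, R64 chromosome VII, 662358 to 666071, plus strand), a factor of the small-subunit processome, rose in WT from 215 CPM at 0 min to 337 at 30 min and was at 119.9 at 120 min; in set1Δ it had 277 CPM at 0 min, 389.7 at 30 min and 128 at 105 min (edgeR adjusted p = 7.90e-04 in WT and 3.45e-04 in set1Δ). MAK16 (YAL025C), which acts early on the large subunit, had 149.8, 266 and 115 CPM in WT at 0, 30 and 120 min (adjusted p = 0.00974), and 253, 329 and 151 CPM in set1Δ (adjusted p = 0.0262). RIO2 (YNL207W), an ATPase of late small-subunit maturation, had 57.8 CPM at 0 min, 116 at 30 min and 49.0 at 105 min in WT (adjusted p = 0.0138). In set1Δ it had 91.0 CPM at 0 min, 105 at 30 min and 53.6 at 75 min (adjusted p = 0.0416). Over all libraries 98.3% of UTP22 reads, 91.1% of RIO2 reads and 86.4% of MAK16 reads had a poly(A) tail. In poly(A) reads alone UTP22 was called in both strains (adjusted p = 0.0334 in WT and 6.95e-04 in set1Δ), RIO2 in set1Δ (0.0451) but not in WT (0.0845), and MAK16 in neither (0.191 in WT and 0.0894 in set1Δ). Without 105 and 120 min, MAK16 and RIO2 were called in WT and lost in set1Δ.

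A second set of members was highest in WT at 120 min. CBF5 (YLR175W) had 202 to 599 CPM in WT from 0 to 105 min and 1738 CPM at 120 min, against 205 to 631 CPM in set1Δ with 466 CPM at 120 min. At that time DBP2 was at 2484 CPM in WT against 621 CPM in set1Δ, GAR1 (YHR089C) at 8124 against 2291 CPM, NOP58 (YOR310C) at 1335 against 709 CPM, and NOP2 at 575 against 209 CPM. In all, 10 members had profiles that differed between strains (edgeR spline terms; 23.8% of members, 12.5% of features), and they were DBP2, CBF5, UTP5, GAR1, EBP2, RRS1, NOP2, NOP58, MAK21 and SPB4. Their reads in the WT library of 120 min had a poly(A) tail in 10.2% (EBP2), 11.6% (CBF5), 12.5% (MAK21), 16.3% (DBP2), 21.1% (UTP5), 29.2% (NOP2), 29.8% (NOP58) and 46.7% (GAR1) of cases. The share was 75.6% in RRS1 and 94.7% in SPB4, which were low in that library, at 49.95 and 21.1 CPM.

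Counts of the time tests depended on these libraries. Without 105 and 120 min, 9 members were called in WT (23.7% of features), 6 in set1Δ (19.4%) and 0 for the difference of profiles (2.65%). Of these, 8 in WT were also called with all times, and in set1Δ 3 were, UTP22, CBF5 and DBP2. In poly(A) reads alone, 11 were called in WT (21.2% of features), 2 in set1Δ (12.0%) and 1 for the difference (2.30%). The 2 in set1Δ were RIO2 and UTP22, and the 1 that differed was GAR1. With 1 time left out, the WT count was 14 without 120 min (30.5% of features). The set1Δ count was 9 without 0 min (17.4%), and without 45, 60 or 75 min (7.14%, 11.7% and 8.62%) it was 2, CBF5 and UTP22. For the difference of profiles, dropping 45 or 60 min left 6 calls (7.48% and 8.87%), dropping 75 min left 5 (6.21%), and dropping 120 min gave 2, DBP2 and NOP1 (3.96%). In poly(A) reads CBF5 had 412 CPM in WT at 120 min and 187 to 295 CPM from 0 to 105 min, while GAR1 had 7780 CPM at 120 min, 3001 at 105 min and 1064 to 1882 CPM from 0 to 90 min. In a split chosen after seeing the data, 10 members had under 60% of their reads tailed in the asynchronous libraries (14.2% of all features). From 90 to 120 min in WT their median log2 change was 1.37 in all reads and 0.94 in poly(A) reads, and in the other 32 members it was 0.18 and 0.11. In set1Δ the medians were −0.15 and 0.10 in all reads, and 0.02 and 0.06 in poly(A) reads. With the share taken over all libraries, 14 members fell under 60% (19.2% of features tested), and the WT medians in all reads were 1.37 and 0.09. Levels in both read sets carry TMM scaling, which differed between libraries and between read sets. In all reads GAR1 had 3285 of 1357630 reads (2471 CPM) in WT at 90 min and 7319 of 1454094 (8124 CPM) at 120 min. In tailed reads it had 1520 of 786963 (1882 CPM) and 3416 of 468864 (7780 CPM). The part of this scaling in the changes given here was not tested. The split is a description, and a cause of the late change was not tested. GAR1 lies 298 bases from its convergent neighbour RPF1, 26 members have a convergent neighbour, and the labels give no strand setting for the counting.

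**Figure D4:**
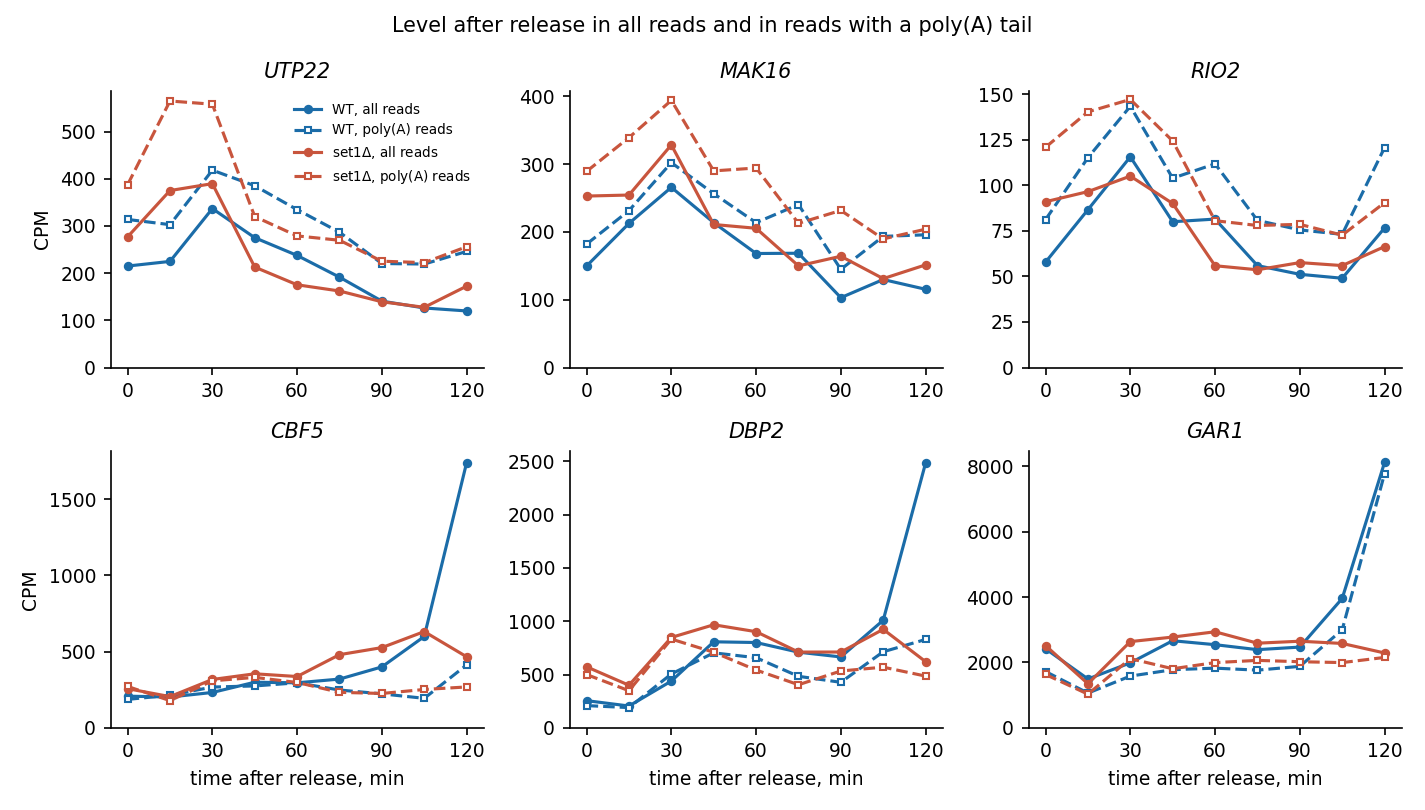
Level in CPM from 0 to 120 min of 6 members in WT (blue) and set1Δ (red). Filled circles show all reads and open squares show reads with a poly(A) tail. Each read set has its own TMM-scaled library sizes, so CPM of all reads and of tailed reads are not on a common scale. UTP22, MAK16 and RIO2 are lower from 60 to 105 min than at 30 min in both read sets, while the values of CBF5 and DBP2 in WT at 120 min are 1738 and 2484 CPM in all reads and 412 and 829 CPM in tailed reads.

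Members tracked each other to different degrees. The correlation of a member with the mean of the other 41, in log2(CPM + 1) over 20 libraries, had a median of 0.56. For other assembly factors the median correlation was 0.51, and for all features compared it was 0.06. It was thus not particular to the members. Among members the correlation was highest for NOP56 (0.91), BRX1 (0.88) and RPF2 (0.85), and lowest for UTP22 (0.14), DBP3 (0.11), SPB4 (−0.10) and NOP16 (−0.23). The order differed within the strains, over 10 libraries each. DBP3 had −0.06 in WT and 0.91 in set1Δ, NOP16 −0.24 and 0.34, and RPF2 0.88 and 0.44. Of 3244 other features with at least 50 reads on average, the 10 most like the members' mean were RIX7 (0.93), RPA135 (0.91), UTP14 (0.90), RPG1 (0.88), SDA1 (0.86), the merged feature of LCB3 (0.86), NMD3 (0.85), MTR4 (0.85), YMR209C (0.85) and EFM4 (0.84). RIX7, UTP14, SDA1, NMD3 and MTR4 are on the list of other assembly factors, and RPA135 encodes a subunit of RNA polymerase I. Among the 100 most alike features, 26 were other assembly factors, of 102 compared, and 1 was a ribosomal protein gene. These correlations are over libraries of the same 2 strains and share their depth and timing.

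The last comparisons concerned the poly(A) tail. The mean tail over libraries ran from 13.2 ± 0.88 nt (SD, n = 20) in GAR1 to 38.1 ± 2.42 nt in NOG2, with a median of 29.0 nt over members and 29.5 nt over 3153 features with at least 10 tailed reads in every library. GAR1 was between 11.4 and 14.9 nt in every library, and 0.254% of those features had a shorter mean. NOP2 (18.05 ± 2.80 nt), NOG1 (20.2 ± 2.38 nt) and NUG1 (21.1 ± 2.30 nt) followed. These means describe tailed reads alone. Over all libraries such reads were 48.0% of GAR1 reads, 36.3% of NOP2, 46.8% of NOG1 and 56.4% of NUG1 reads. The median over all features tested was 83.4%, and a link between this share and tail length was not tested. At the long end were SOF1 (37.8 ± 6.57 nt), NOP53 (37.6 ± 5.32 nt) and NSR1 (35.5 ± 2.85 nt). SOF1 and NOP53 each had under 10 tailed reads in 1 library.

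Most members had longer mean tails at 15 min than in the arrest, from 1 library per strain and time. In WT 39 of 42 members were longer at 15 min than at 0 min, by a median of 4.05 nt, where 66.2% of features were longer, by a median of 1.44 nt. In set1Δ 34 were longer, by a median of 2.39 nt, where 65.4% of features were longer, by 1.05 nt. From 15 to 30 min 32 members were shorter in WT (median −1.54 nt), where 60.2% of features were longer (median 0.78 nt). In set1Δ 35 were shorter (median −3.33 nt), and 33.0% of features were longer (median −1.52 nt). Tested over both strains as the mean of 15, 30 and 45 min minus 0 min, 38 members had a positive estimate (median 1.79 nt, against 1.48 nt over all features), but 0 were called (limma; 0% of features), and 3 had an unadjusted p below 0.05 (8.38% of features). UTP4 (YDR324C), a protein of the same early complex as Utp10, had 24.8 nt at 0 min in WT, where its median was 31.8 nt, and 27.4 nt in set1Δ, where its median was 32.8 nt. Both were the shortest of their strain, and its release estimate was 5.45 ± 1.58 nt (adjusted p = 0.428). Against the asynchronous culture, tails in the arrest had a median difference of −1.89 nt over members (−1.16 nt over all features), with 0 called (0% of features) and 3 with an unadjusted p below 0.05 (4.33% of features).

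Between strains, the median tail difference was −0.97 nt over members and −0.66 nt over all features. None of the members was called (limma; 0.0934% of features), and 4 had an unadjusted p below 0.05 (13.2% of features). The largest in size were MAK5 (−3.98 ± 1.01 nt, adjusted p = 0.138) and RPF2 (−3.40 ± 0.67 nt, adjusted p = 0.0641). RPF2 tails ranged from 25.1 to 29.3 nt in WT and from 21.0 to 28.3 nt in set1Δ, so the ranges overlapped. RPF2 passed when tails came from at least 30 reads or were weighted by reads. In those settings 35 of 2531 and 47 of 4281 features were called, against 4 of 4281 as reported. With tails centred on the library median, 0 of 4281 features were called, so RPF2 did not pass. From the early times (15 to 45 min) to the later ones (60 to 90 min), 0 members were called (0.164% of features) and 6 had an unadjusted p below 0.05 (16.6% of features). UTP22 had 6.56 ± 1.82 nt longer tails later (adjusted p = 0.100), MAK16 5.11 ± 1.35 nt longer (adjusted p = 0.0845), and DBP2 was −5.43 ± 1.75 nt (adjusted p = 0.142). With tails weighted by reads 3 members passed (5.00% of features), UTP22 (6.28 nt, adjusted p = 0.00990), DBP2 (−5.24 nt, adjusted p = 0.0219) and MAK16.

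**Figure D5:**
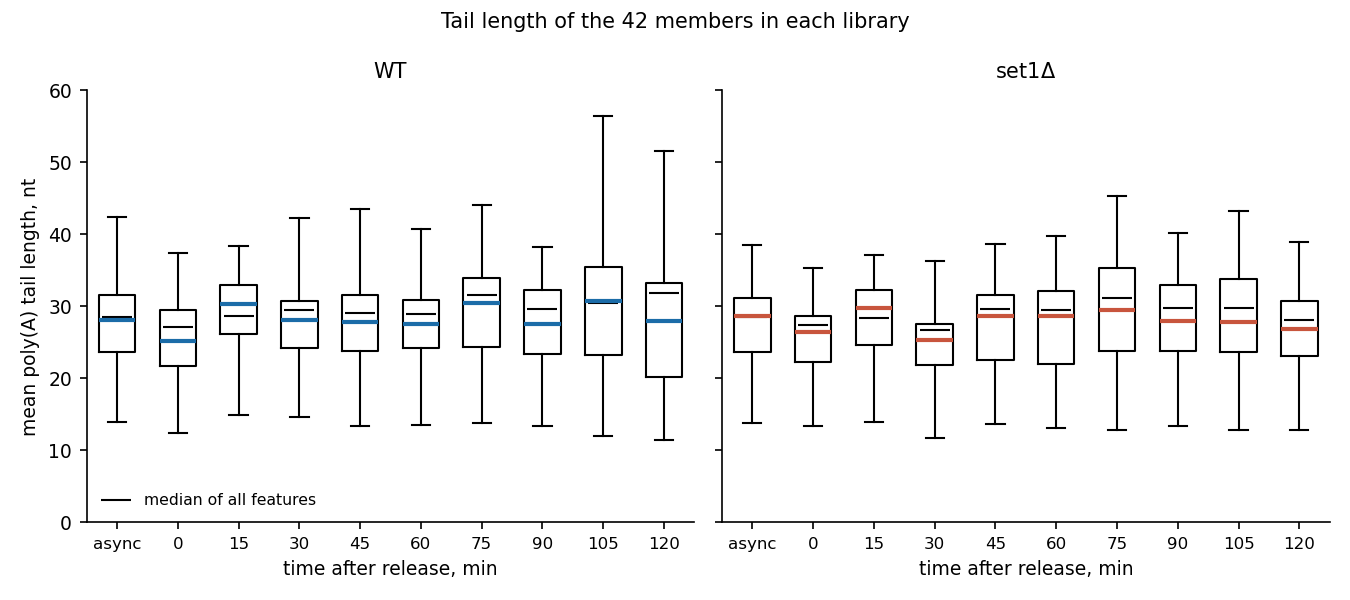
Mean poly(A) tail length in nucleotides of the 42 members in each library of WT (left) and set1Δ (right), as boxes (quartiles), a coloured median and whiskers to the range; a black dash marks the median of the 3153 features with at least 10 tailed reads in every library. In WT the member median is 25.3 nt at 0 min and 30.3 nt at 15 min, and in set1Δ it is 26.5 and 29.8 nt.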

How the data were processed

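PAT-seq read counts from 20 libraries, 1 per strain and time, were analysed. The authors deposited whole-number counts per feature, the same for tailed reads only, and the average tail in nucleotides. Bowtie2 2.2.5, Bowtie and the build sacCer3 stand in the submitters' processing notes; the counting tool, filters and strand setting are not given in the sources used here. Per the labels, α-factor (5 µg/ml) was given for some 2 h, and reads were 150 nt long.

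Features with a mean count of at least 10 went into edgeR 4.0.16 with robust quasi-likelihood tests and TMM scaling in R 4.3.3. The strain, arrest and release contrasts used strain plus time as a factor of 10 levels, with 9 residual degrees of freedom. Changes over time used a natural spline with 5 degrees of freedom per strain over the 18 libraries after release. Tail lengths from at least 10 reads, with at least 8 values per strain, were tested with limma 3.58.1. A value from fewer reads was dropped from the tests and kept in the described means and ranges. P-values were adjusted by Benjamini-Hochberg over all features tested, with calls below 0.05. DESeq2 1.42.0 was an alternative.

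The members and lists were chosen with earlier results of these data known. By rule, 22 members were given with values, with the members of smallest p and of highest and lowest estimate in a comparison; others were named after their values were seen. Of 10 planned comparisons all are reported. The difference of arrest responses, the strain difference without 0, 105 and 120 min, the fits without the libraries of lowest tailed share, and the split by tailed share were added after seeing the data. In simulated data with 200 changed genes, 2-fold strain differences were recovered for 99.0% of genes among 5042. Recovery was 12.5% among 5037 for 2-fold arrest responses and 1.00% among 5020 for 2-fold profile differences, so counts of 0 for these kinds say little. Tail changes of 5 nt, among 3153 features, were recovered for 39.5% in the release test and 95.0% in the strain test. Simulated tails had no shift shared by a library. All simulated counts had the same dispersion for every gene and no change over time or between strains beyond the change put in. The recovered shares therefore need not hold for the measured data, where the strains differed in timing. A member that was not called is not shown to differ by less than 2-fold. NOP58 shares a merged feature with YOR309C, SSF1 has a close paralog, and NOG2 holds a snoRNA in its intron, so their counts may include other RNAs. Same-numbered libraries of the strains share their time point, which is why the main fit carries time as the block.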

Additional observations from a re-analysis of the deposited data

Results flagged for a closer look

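The level and the tail length of the 22 members given with values were searched, in each strain, for a library far from the other 9. Of 88 such groups of 10 libraries, 18 held 1, and 7 of the 18 were WT at 120 min. The limit would flag about 1 in 20 groups of independent values drawn alike. Here the libraries of a group are different times and the groups share libraries, so the 18 cannot be set against that rate. In that library GAR1 (8124 CPM, median of WT 2508), DBP2 (2484, median 693), CBF5 (1738, median 309), NOP58 (1335, median 552), NOP2 (575, median 187) and ERB1 (523, median 269) were high, and DBP2 tails were short (17.8 nt, median 30.7). The set1Δ library of 30 min, the one with the fewest reads, was high for NSR1 (672 CPM, median 323), ERB1 (474, median 342) and NOP2 (414, median 253), with short GAR1 tails (11.8 nt, median 13.2). The set1Δ library of 15 min was low for GAR1 (1349 CPM, median 2604) and NOP56 (177, median 247), with long tails of DBP3 (34.3 nt, median 29.1) and NOP2 (21.7 nt, median 17.4). In WT at 105 min tails were long in RIO2 (46.2 nt from 34 tailed reads, median 31.5) and YTM1 (47.6 nt from 18 tailed reads, median 29.7). At 0 min in WT they were short in UTP4 (24.8 nt from 36 tailed reads, median 31.8).

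The profile over time differed between strains (edgeR spline terms, adjusted p) for DBP2 (4.29e-04), CBF5 (0.00172), UTP5 (0.00250), GAR1 (0.00462), EBP2 (0.00576), RRS1 (0.0201), NOP2 (0.0209), NOP58 (0.0255), MAK21 (0.0314) and SPB4 (0.0481). None of the 10 passed without 105 and 120 min, and GAR1 alone passed in tailed reads.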

How the results depend on the processing

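The strain difference had the same 14 higher calls under RLE scaling, no filter and DESeq2, and 21, with all 14 among them, with the tailed share as covariate. It had 16 in tailed reads and 20 without 105 and 120 min, each with 12 of the 14. With no replicate block (no term for time) 8 of the 14 were called. Calls over all features moved too. The higher ones numbered 427 of 5060 as reported and 700 of 5060 with the tailed share as covariate. They numbered 565 of 4875 in tailed reads, 660 of 5084 without 105 and 120 min and 267 of 5060 with no term for time. Leaving out 1 time gave 10 to 20 members higher and 0 to 1 lower. NOP16 was the 1 lower call without 120 min, without 105 and 120 min, and without the 4 libraries of lowest tailed share, a setting chosen after seeing the data. Without 0, 105 and 120 min there was also 1 lower call. The arrest median ran from −0.62 to −0.06 and its lower calls from 0 to 1 when 1 library or time was left out, and the release median from −0.31 to 0.22; the release had 1 lower call without 105 and 120 min. Members called over time in WT numbered 11 in tailed reads, 9 without 105 and 120 min and 14 to 26 with 1 time left out. In set1Δ they numbered 2 in tailed reads and 2 to 9, and for the difference of profiles 1 in tailed reads, 0 without 105 and 120 min, and 2 to 12 with 1 time left out (6 without 45 or 60 min, 5 without 75 min). Tails between strains gave 1 lower call from at least 30 reads (34 of 2531 features lower) and 1 when weighted by reads (45 of 4281 features lower). For later against early tails there were 2 higher calls from at least 30 reads, 2 higher and 1 lower when weighted, 3 higher and 1 lower without 105 and 120 min, 1 higher and 1 lower without the 4 libraries, and 0 to 2 higher and 0 to 1 lower with 1 time left out. Centring tails on the library median moved that median to −1.20 nt. The cause of these shifts was not tested. Depth limits single libraries most for members such as NOP53, with 7 reads in WT at 105 min.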
